A study of Mus musculus with 20 samples.

Results

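The genes described here are those of the local angiotensin system in visceral fat: angiotensinogen (Agt), angiotensin converting enzyme (Ace), the angiotensin receptor Agtr1a, and 3 cell surface aminopeptidases that shorten angiotensin peptides, Enpep, Anpep and Lnpep. Each gene was taken by name, through probe sets annotated to that gene alone, and where a gene had several, the one brightest on average over the 20 arrays stands for it. Of the 6 genes, 5 had such a probe set and 4 passed the filter on low values, out of 18194 genes with a probe set of their own and 10603 that passed. Lnpep had no probe set of its own in the annotation used and was not analysed here. Anpep lay under an intensity of 100, the expression threshold of the study, on all 20 arrays and was not tested. Its highest value was 98.49, and the lowest value among the tested genes was 110.0 for Ace.

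RNA of visceral fat from 20 C57BL/6J female mice was hybridized to whole genome mouse arrays, with 1 array per mouse and no pooling. The mice formed 4 groups of 5. Control mice ate a diet with 10% fat and high fat (HF) mice a diet with 58% fat, and within each diet 5 mice were in late pregnancy (E18.5) and 5 were not pregnant. All mice carried the same unmodified strain background, and the label E18.5 was also given to the mice that were not pregnant. All 6 measured adipocyte markers, of 8 listed, were above 100 on all arrays. Control non pregnant mouse 4 and control pregnant mouse 2 stood apart by genes of the pancreas, the latter also by genes of the intestine, HF non pregnant mouse 1 by genes of the liver, and HF non pregnant mouse 5 by the highest B cell markers. Results that these arrays moved are given without them too. Enpep was chosen by its low intensities with HF feeding in the pregnant mice of these same data. Its values in any comparison or average that holds either pregnant group are therefore given as a description without a p value. The other genes were added as the pathway around it, and Agt had been named from these data before.

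In the renin angiotensin system, angiotensinogen is cut by renin to angiotensin I, which angiotensin converting enzyme turns into angiotensin II, the peptide that acts on the receptor encoded by Agtr1a to raise blood pressure and sodium retention. Enpep encodes aminopeptidase A, which removes the first amino acid of angiotensin II and so makes angiotensin III, and Anpep encodes aminopeptidase N, which makes angiotensin IV from it. Lnpep encodes the aminopeptidase that binds angiotensin IV. Fat tissue is a known site of angiotensinogen production outside the liver.

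Because Enpep moved with a gene that lies next to it on chromosome 3, the 250 bases before the annotated starts of both are shown first, from the RefSeq annotation of mouse build GRCm38.p6. The Enpep stretch is chr3:129332750-129332999 on the minus strand and the Elovl6 stretch is chr3:129532136-129532385 on the plus strand, so that the genes point away from each other. Elovl6 encodes an enzyme that lengthens fatty acids. Capitals mark matches, on either strand, to the letters TATAA of the TATA box, CCAAT of the CCAAT box, CACGTG of the E-box, TCACNCCAC of a sterol regulatory element, and GGTCA, a half-site of nuclear receptors such as the estrogen receptor.

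Enpep: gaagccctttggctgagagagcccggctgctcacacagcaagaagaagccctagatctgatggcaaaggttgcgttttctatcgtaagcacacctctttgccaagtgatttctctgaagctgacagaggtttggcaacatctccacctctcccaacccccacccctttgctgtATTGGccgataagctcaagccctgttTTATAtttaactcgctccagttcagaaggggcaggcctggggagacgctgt

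Elovl6: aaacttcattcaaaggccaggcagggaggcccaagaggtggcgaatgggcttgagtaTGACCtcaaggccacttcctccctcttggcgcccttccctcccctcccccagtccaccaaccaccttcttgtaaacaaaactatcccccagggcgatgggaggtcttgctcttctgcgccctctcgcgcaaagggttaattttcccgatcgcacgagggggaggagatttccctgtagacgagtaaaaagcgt

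The Enpep stretch held 1 match to TATAA, beginning 51 bases before the start, and 1 match to CCAAT, beginning 77 bases before it. The Elovl6 stretch held 1 match to GGTCA, 193 bases before its start. Of 27025 promoter stretches of the same length, TATAA was present in 23.5%, CCAAT in 34.5%, GGTCA in 34.9%, CACGTG in 6.05% and TCACNCCAC in 1.04%. The Enpep stretch had no match to the last 3 of these, and the Elovl6 stretch none to the other 4. The motifs searched were therefore not shared by the stretches, and each match is a description of letters in this window.

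Enpep had its lowest values in HF pregnant mice, where the intensities of mice 1 to 5 were 1515, 1515, 1040, 1625 and 1419. In control pregnant mice they were 10458, 5512, 10789, 4983 and 6237. The groups did not overlap, and the lowest control mouse stood well above the highest HF mouse. The mean on the log2 scale was 10.46 ± 0.25 (SD, n = 5) in HF pregnant and 12.81 ± 0.53 (SD, n = 5) in control pregnant mice, a difference of -2.36 with a standard error of 0.33, or 5.12-fold lower. This difference had chosen the gene, so its place among the probe sets called follows from the choice and nothing is read from it. Across all 19802 probe sets tested, 0.192% had an adjusted p under 0.05 by limma in this comparison, and none of the other 3 tested genes was among them. The groups did not overlap for 3.51% of all probe sets, and they overlapped for each of the other 3 genes. In bulk tissue, fewer cells of a type and less RNA in each of those cells cannot be told apart.

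The mice that were not pregnant took no part in that choice. Enpep intensities in control non pregnant mice 1 to 5 were 4771, 3967, 8260, 8797 and 9792, and in HF non pregnant mice 2099, 4232, 3223, 5589 and 1586. HF mice 2 and 4 lay within the control range, and the other 3 lay under it. The log2 mean was 11.56 ± 0.74 (SD, n = 5) with HF feeding and 12.71 ± 0.58 (SD, n = 5) on the control diet. The difference of -1.15 (standard error 0.33, 95% confidence interval -1.84 to -0.45), or 2.21-fold, had a two-sided exact permutation p of 0.0397. It did not pass after adjustment over all probe sets, with an adjusted p of 0.281 by limma. No probe set passed there (0%, smallest adjusted p 0.281), although 17.7% of probe sets had an unadjusted p under 0.05, so an unadjusted p of this size was common in this comparison. Of the 4 tested genes, 0 passed by limma, 1 (Enpep) had an unadjusted p under 0.05, and 1 (Enpep) passed the rank product test of the methods, at a one-sided unadjusted p under 0.05 with a 1.5-fold change, which called 8.8% of all probe sets.

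Pregnancy on the control diet left Enpep with a log2 difference of 0.10 (standard error 0.33, 95% confidence interval -0.59 to 0.80), and the groups overlapped. This interval still allows a change of more than 1.5-fold upward. The control pregnant mice also entered the comparison that chose the gene, so these values are a description. In HF mice, Enpep was lower by 1.11 on the log2 scale in pregnant than in non pregnant mice (standard error 0.33), with HF non pregnant mouse 5, at 1586, inside the range of the pregnant mice. This comparison holds the HF pregnant mice that chose the gene and is a description. From the lowest to the highest, the groups stood in the order HF pregnant, HF non pregnant, control non pregnant and control pregnant. The last pair differed by less than their spread, and each other neighbouring pair overlapped as well. The effect of pregnancy under HF feeding minus that on the control diet was -1.21 (standard error 0.47). It holds the arrays that chose the gene and is a description as well. No probe set passed in that comparison or for pregnancy on the control diet (0% each, by limma). At an unadjusted p under 0.05 stood 3.08% of probe sets and none of the other 3 genes in the former, and 2.9% and 0 of the 4 in the latter, where the rank product called 2.61% of probe sets and 0 of the 4.

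**Figure D1:**
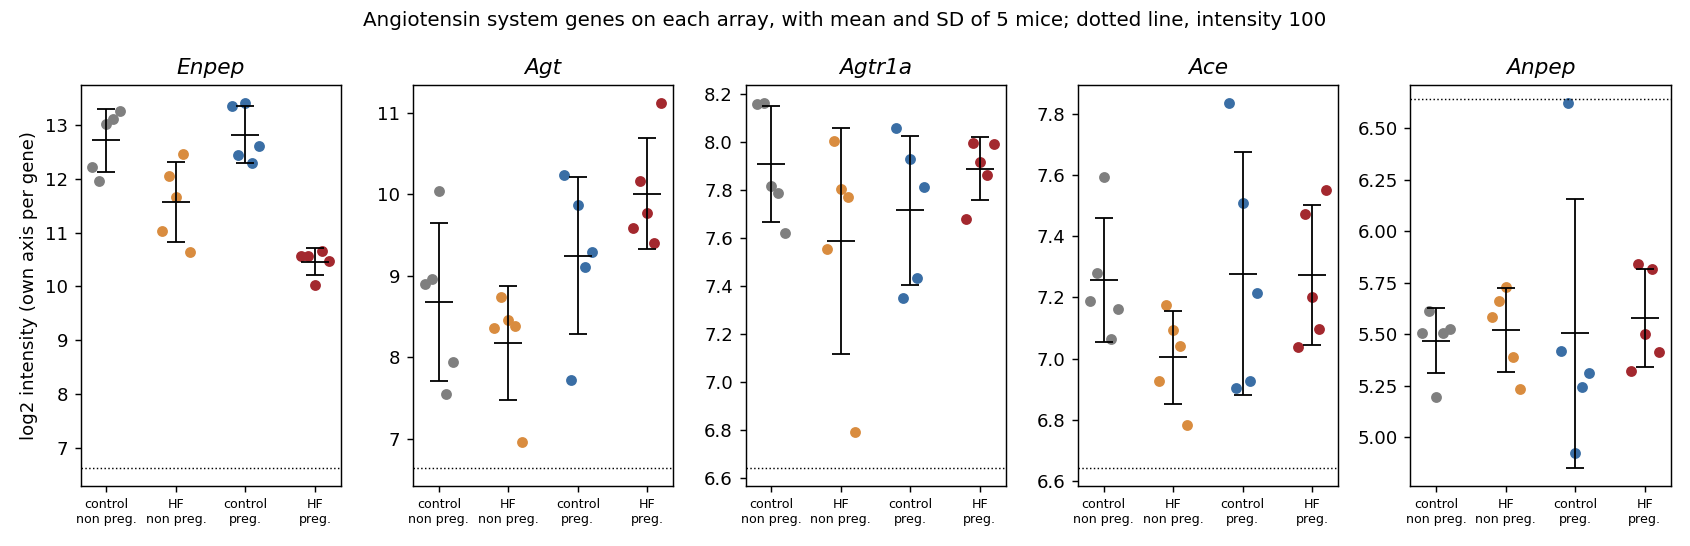
Log2 intensity of the 5 measured genes on each of 20 arrays, by group (x axis), with each gene on its own y axis, points for single mice, and bars for the mean and SD of 5 mice. Enpep is lowest in the 5 HF pregnant mice (1040 to 1625), Agt has its highest mean there, and all points of Anpep lie under the dotted line at intensity 100.

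Agt, the precursor of all angiotensin peptides, had the widest spread of the 4 tested genes in 3 of the 4 groups. In HF pregnant mice 1 to 5 its intensities were 766.4, 1145, 871.9, 673.8 and 2223, and in HF non pregnant mice 328.4, 426.5, 351.2, 333.4 and 124.1. All pregnant HF mice stood above all non pregnant HF mice. The log2 means were 10.01 ± 0.68 and 8.18 ± 0.70 (SD, n = 5 each), a difference of 1.83 (standard error 0.50, 95% confidence interval 0.78 to 2.88), or 3.55-fold higher in pregnancy. The exact permutation p was 0.00794, the smallest that 5 against 5 mice allow, and the adjusted p by limma was 0.472. Agt had been named from these data before. Its p values here and below therefore do not test a gene chosen in advance and are a description. Of all probe sets, 0.0252% passed in this comparison and 1.53% did not overlap, and of the 4 genes 0 passed and 1, Agt, did not overlap. At an unadjusted p under 0.05 stood 4.66% of probe sets and, besides Enpep, Agt. The rank product with a 1.5-fold change called 2.2% of probe sets and, besides Enpep, Agt. So the separation of Agt by pregnancy in HF mice was complete in these 10 mice and did not pass the test over all probe sets.

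In control mice Agt overlapped between pregnant and non pregnant animals. The intensities were 1211, 210.6, 932.7, 552.8 and 627.0 in the pregnant mice of this diet and 478.4, 496.1, 1054, 187.4 and 245.8 in those not pregnant. The log2 means were 9.25 ± 0.97 and 8.68 ± 0.97 (SD, n = 5 each), with a difference of 0.57 (standard error 0.50, adjusted p = 0.963 by limma, exact permutation p = 0.357). It was 0.95 without control pregnant mouse 2, 0.29 without control non pregnant mouse 4 and 0.67 without both. Averaged over both diets, Agt was higher in pregnancy by 1.20 (standard error 0.35, adjusted p = 0.613 by limma). There 0.0101% of all probe sets and 0 of the 4 genes passed by limma. At an unadjusted p under 0.05 stood 4.59% of probe sets, Agt, and Enpep, whose average holds the arrays that chose it. Whether pregnancy acted differently under the 2 diets was fitted directly, and the difference of 1.26 (standard error 0.71) had an adjusted p of 0.933 by limma. It was 0.88 without control pregnant mouse 2, 1.54 without control non pregnant mouse 4 and 1.16 without both. It was 0.95 without HF non pregnant mouse 5 and 0.88 with B cell markers as a covariate. Over 31 alternatives it lay between 0.17 and 1.54.

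No change of Agt with HF feeding passed by limma. In pregnant mice the log2 difference was 0.76 (standard error 0.50, 95% confidence interval -0.29 to 1.81, adjusted p = 0.502 by limma, exact permutation p = 0.206). In non pregnant mice it was -0.50 (standard error 0.50, 95% confidence interval -1.55 to 0.55, adjusted p = 0.508 by limma, exact permutation p = 0.381). Both intervals are wide and hold changes of more than 1.5-fold in 1 direction. The rank product with a 1.5-fold change called 5.21% of all probe sets in pregnant mice, among them Agt (1.69-fold higher with HF feeding, one-sided p = 0.000399 by 100 permutations), and did not call it in non pregnant mice, where the difference was 1.41-fold. These permutations shuffled the probe sets within each array. The rank product p therefore sets Agt against other probe sets and does not measure its spread between mice. Without HF non pregnant mouse 5 the difference in non pregnant mice was -0.19. With 2 of the settings tried, given in the closing section, the sign in non pregnant mice turned.

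The receptor gene Agtr1a and the converting enzyme gene Ace lay close to the expression threshold and moved little. Among control mice the intensities of Agtr1a ran from 163.4 to 267.0 in pregnancy and from 197.2 to 286.8 without it. Among HF mice they ran from 204.9 to 255.9 in pregnancy and from 110.9 to 257.4 without it. The 4 ranges overlapped. Its log2 difference with HF feeding was 0.17 in pregnant mice (standard error 0.19, adjusted p = 0.665 by limma) and -0.32 in non pregnant mice (standard error 0.19, adjusted p = 0.297 by limma). Pregnancy gave 0.30 in HF mice and -0.19 in control mice (standard error 0.19 each, adjusted p = 1.0 and 0.963 by limma). HF non pregnant mouse 5, at 110.9, was the lowest of all 20, and without it the difference with HF feeding in non pregnant mice was -0.12 and that of pregnancy in HF mice 0.10.

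Among control mice Ace ranged from 119.8 to 228.2 in pregnancy and from 133.9 to 193.0 without it. Among HF mice the ranges were 131.5 to 187.6 and 110.0 to 144.4, so the lowest value of all 20 was that of an HF non pregnant mouse, followed by control pregnant mouse 2, and all ranges overlapped. With HF feeding the log2 difference was -0.01 in pregnant mice (standard error 0.16, adjusted p = 0.985 by limma) and -0.25 in non pregnant mice (standard error 0.16, adjusted p = 0.318 by limma, exact permutation p = 0.0476). The second probe set of Ace, which was dimmer and above 100 on 9 of 20 arrays, correlated with the first over the 20 arrays (r = 0.84). For non pregnant mice it gave a difference of -0.28 (standard error 0.11, adjusted p = 0.281 by limma) with groups that did not overlap, where the first probe set overlapped. The groups did not overlap in 2.19% of all probe sets in that comparison and in 0.217% for pregnancy on the control diet, and in neither did any of the 4 genes by its chosen probe set. Pregnancy gave a log2 difference of Ace of 0.27 in HF mice and 0.02 in control mice (standard error 0.16 each, adjusted p = 1.0 and 0.992 by limma).

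**Figure D2:**
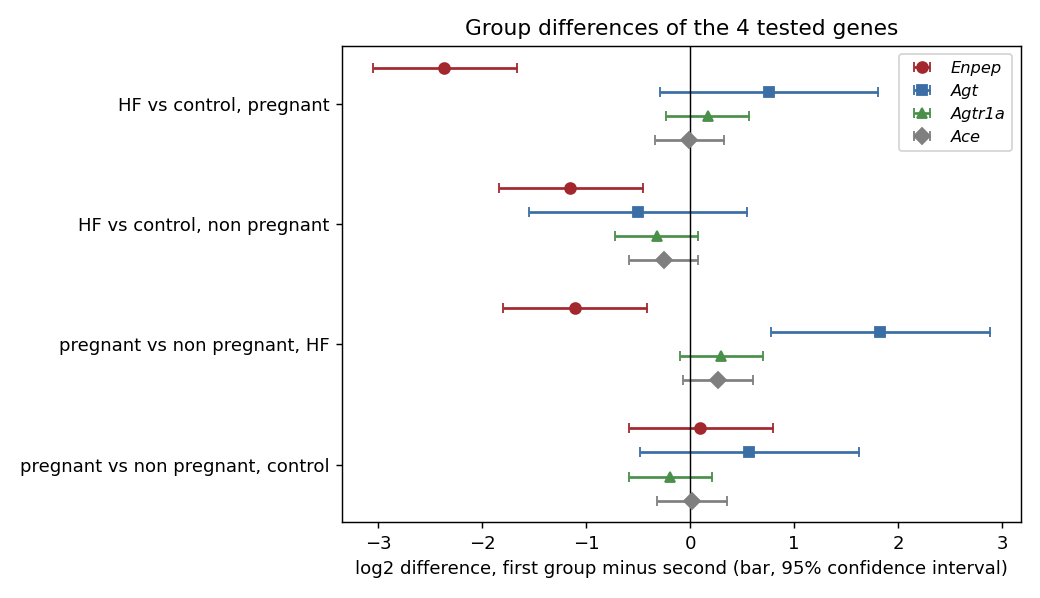
Log2 differences between groups (x axis) for Enpep, Agt, Agtr1a and Ace in 4 comparisons (y axis), with 95% confidence intervals from limma. Enpep stands apart to the left with HF feeding in pregnant mice (-2.36, the comparison that chose it), and Agt to the right for pregnancy in HF mice (1.83).

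Anpep, the aminopeptidase that acts after Enpep, was dim. Its log2 means were 5.50 ± 0.65 with and 5.47 ± 0.16 without pregnancy on the control diet, and 5.58 ± 0.24 with and 5.52 ± 0.20 without pregnancy under HF feeding (SD, n = 5 each). The highest value was that of control pregnant mouse 2, at 98.49, where the highest of the other 19 mice was 57.29. That array also carried the highest values of 7 of 10 markers of intestinal epithelium, a cell type that makes aminopeptidase N. Fabp2, a fatty acid binding protein of the intestine, reached 529.4 there against at most 94.83 in the other mice, and Lgals4, a lectin of the gut lining, 859.8 against at most 273.3. The summed intensity of the 10 markers was 2427 on that array and between 437.8 and 636.9 in the mice of the other 3 groups. Lgals4 was also the gene whose pattern was most like that of Anpep (r = 0.77 over 20 arrays), and without that array r was 0.29. The part of such cells in the Anpep value was not tested.

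The 5 genes most like Enpep over the 20 arrays, out of 10602 compared, all belong to the making of fatty acids from glucose. They were Me1 (malic enzyme, which supplies NADPH), Elovl6, Fasn (fatty acid synthase), each with r = 0.98, Acly (which makes cytosolic acetyl-CoA) and Tkt (transketolase of the pentose phosphate pathway), each with r = 0.97. In all, 70 genes reached r of 0.9 with Enpep, against a median r over all genes of -0.08. The r over 20 arrays holds the difference between pregnant groups that chose Enpep. The ranking and this count therefore favour genes with a large diet difference there. Without the 2 arrays farthest from the median of Enpep, the 5 genes kept r between 0.97 and 0.98. When each mouse was taken as its deviation from its group mean, r was still between 0.87 and 0.92. These correlations are a description of 20 tissue samples that were normalized together.

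Elovl6 shows how closely single mice followed each other. Its intensities were 3719, 1899, 14943, 12398 and 12839 in control non pregnant mice 1 to 5, and mice 1 and 2 were also the lowest of this group for Enpep. In HF non pregnant mice they were 1294, 1868, 1179, 8163 and 574.4. Mouse 4 of that group, which had the highest Enpep value of its group, also had the highest Elovl6 value, and mouse 5 had the lowest of both. In control pregnant mice Elovl6 reached 15947, 7723, 15575, 7248 and 8672, and in HF pregnant mice 463.6, 337.4, 237.3, 526.9 and 291.1. HF pregnant mouse 3 was the lowest of all 20 for both genes and mouse 4 the highest of its group for both.

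**Figure D3:**
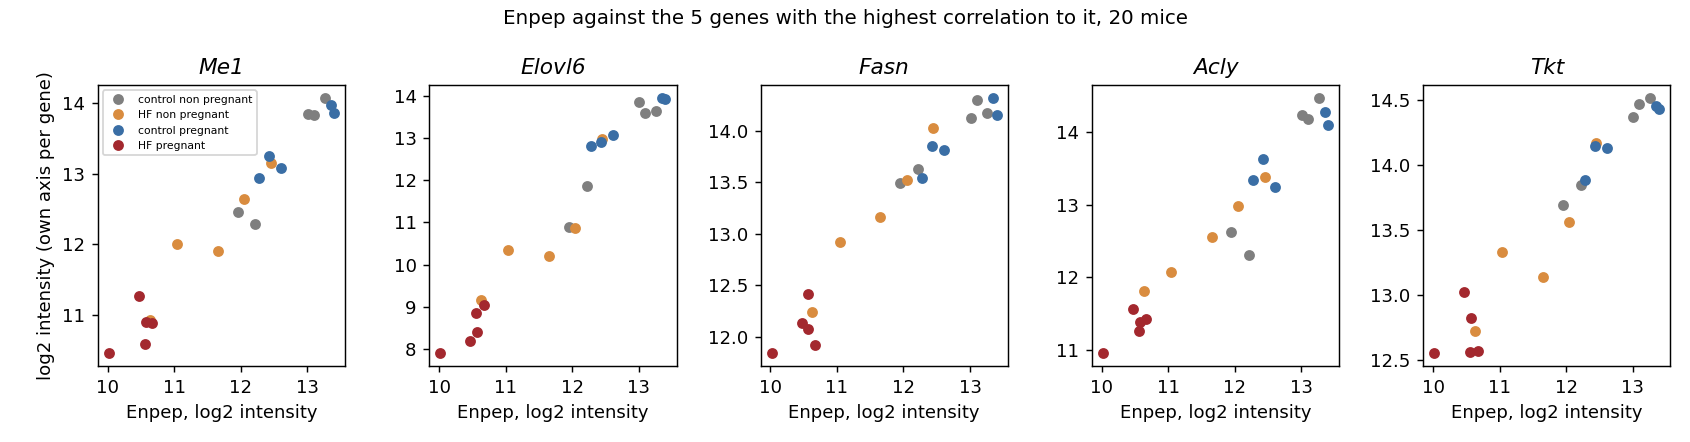
Log2 intensity of Enpep (x axis) against Me1, Elovl6, Fasn, Acly and Tkt (y axes) in 20 mice, coloured by group. HF pregnant mice lie at the low end of every panel, HF non pregnant mice spread from there into the range of the control mice, and r is 0.97 or 0.98 in each panel.

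On chromosome 3, Elovl6 is the protein coding gene next to Enpep, with none annotated between them. This was noticed after the correlations had been seen. Among the 6 protein coding genes on either side of Enpep, 5 had a tested probe set, Elovl6 included. The other 4 of these were Tifa, Ap1ar, Fam241a and Gar1, whose correlation with Enpep over the 20 arrays lay between -0.76 (Ap1ar) and 0.75 (Fam241a). In pregnant mice their log2 differences with HF feeding were 0.53 for Tifa, 0.19 for Ap1ar, -0.38 for Fam241a and 0.16 for Gar1, and none passed (adjusted p 0.275 to 0.621 by limma). Elovl6 differed by -4.87 in the pregnant and -2.06 in the non pregnant mice (standard error 0.62 each). Of the remaining neighbours, 4 were under the threshold and 3 had no probe set of their own and were not analysed here. The other lipogenic genes, Me1, Fasn, Acly and Tkt, are not among these neighbours.

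**Figure D4:**
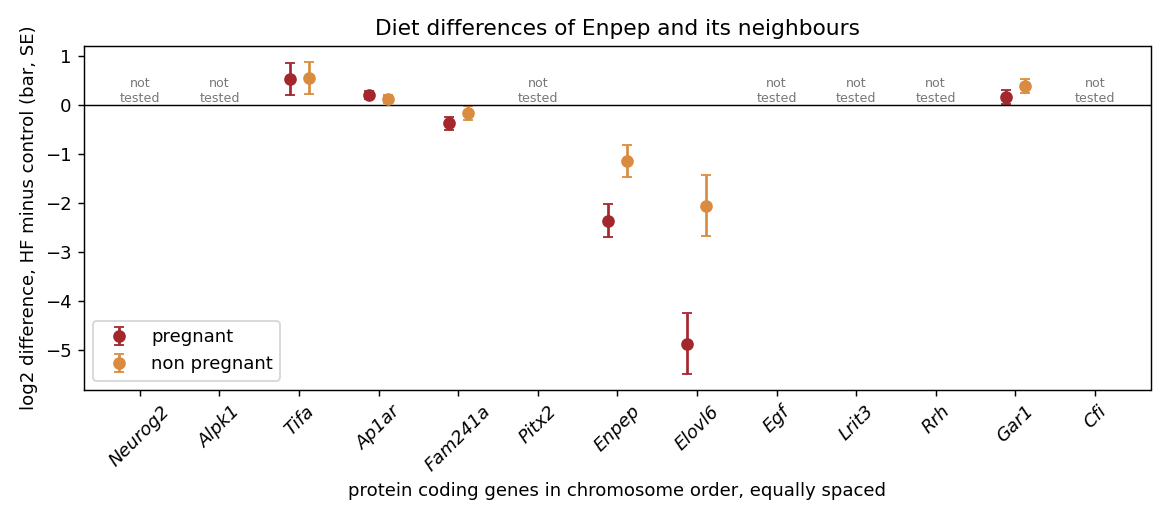
Log2 difference between HF and control mice (y axis, bars are standard errors) for Enpep and the 6 protein coding genes on either side in chromosome order (x axis, equally spaced), in pregnant and non pregnant mice. Enpep (-2.36) and Elovl6 (-4.87) lie far under 0 in pregnant mice, and the other 4 tested neighbours lie between -0.38 and 0.53.

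The other members followed different genes. Agt was most like Rhou, a small GTPase (r = 0.95), Scn3b, a sodium channel subunit, and Pcsk5, a proprotein convertase (r = 0.94 each). Agtr1a was most like Ppfibp1 (r = 0.96), Tmbim1 (r = 0.95) and Neo1, the receptor neogenin (r = 0.94). Ace was most like Lrrc41 (r = 0.93), Xpnpep3, an aminopeptidase of mitochondria, and Sdr42e1 (r = 0.92 each). Among the members themselves, Agt and Ace had r = 0.79 (0.85 for deviations from group means), Agtr1a and Ace 0.68, and Agt and Agtr1a 0.64, while Enpep had r of -0.17 with Agt, 0.14 with Agtr1a and 0.27 with Ace. For deviations from group means Enpep had r of 0.31, 0.41 and 0.49 with these genes, under the 0.65 to 0.85 among Agt, Agtr1a and Ace and under the values for the lipogenic genes.

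The shared variation of Agt, Agtr1a and Ace ran against markers of lymphocytes. The mean log2 deviation of 7 B cell markers, of 8 listed, had r of -0.77 with Agtr1a, -0.72 with Ace, -0.48 with Agt and -0.43 with Enpep over the 20 arrays. For deviations from group means r was -0.81, -0.72, -0.70 and -0.33. HF non pregnant mouse 5 had the highest B cell value (2.31, with the next mouse at 1.61) and, within its group, the lowest Enpep (1586), Agt (124.1), Agtr1a (110.9) and Ace (110.0). Without this mouse the correlation with Agtr1a was -0.77, that with Ace -0.67, and those with Agt and Enpep -0.37 each. The summed intensity of the B cell markers ranged from 526.5 to 10593 with and 816.2 to 5544 without pregnancy on the control diet, and from 942.4 to 8053 with and 2174 to 17945 without pregnancy under HF feeding. Markers of adipocytes ran the other way, with r of 0.72 for Ace, 0.71 for Agtr1a, 0.51 for Enpep and 0.42 for Agt. For deviations from group means these were 0.82, 0.82, 0.56 and 0.77, so adipocyte markers tracked these genes about as closely as B cell markers did. The part of adipocytes in these values was not tested. Markers of mesothelium, the lining of the abdominal cavity, had r of 0.68 with Agt, 0.74 with Agtr1a, 0.49 with Ace and -0.06 with Enpep, and markers of endothelium 0.57, 0.69, 0.57 and -0.23. The mean log2 deviation of the 5 mesothelium markers was 0.23 ± 0.13 with and -0.27 ± 0.44 without pregnancy under HF feeding (SD, n = 5 each), the pair of groups between which Agt did not overlap. Their part in the Agt difference was not tested.

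With the B cell markers as a covariate, the log2 difference of Agt between pregnant and non pregnant HF mice was 1.66, and without HF non pregnant mouse 5 it was 1.52. For Enpep the difference with HF feeding in non pregnant mice was -0.94 with the covariate and -0.91 without that mouse, against -1.15 with all mice. Enpep is also known as an antigen of early B lymphocytes. Of 4 genes that define early B cells, Vpreb1, Rag1 and Dntt were under 100 on all 20 arrays, and Igll1 ranged from 86.27 to 134.2. Enpep is also abundant in the proximal tubule of the kidney. Of 5 kidney markers, Slc34a1, Slc22a6, Lrp2 and Umod were under 100 on all arrays, and Kap ranged from 78.82 to 135.0. The 10 markers of smooth muscle and pericytes had r of -0.12 with Enpep. The part of lymphocytes in the values of Agt, Agtr1a and Ace was not tested beyond these fits.

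**Figure D5:**
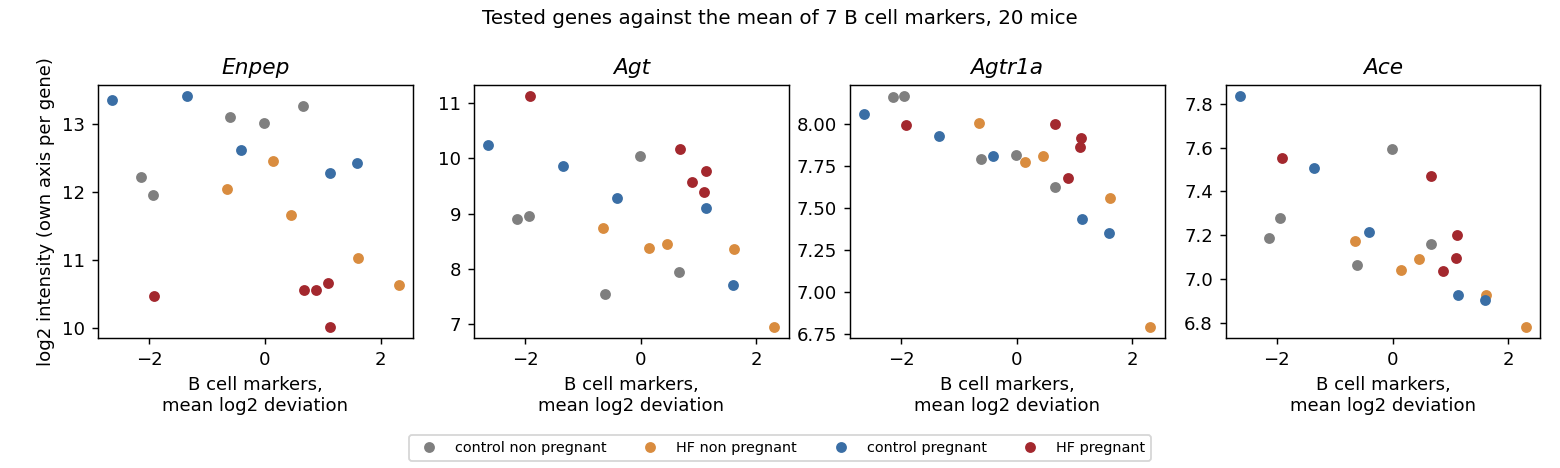
Log2 intensity of Enpep, Agt, Agtr1a and Ace (y axes) against the mean log2 deviation of 7 B cell markers from their means over all arrays (x axis) in 20 mice, coloured by group. Agtr1a and Ace fall from left to right (r = -0.77 and -0.72), and HF non pregnant mouse 5 lies at the lower right of each of these panels.

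Agt also had its lowest values within the control groups on the 2 arrays highest in pancreatic acinar genes, control non pregnant mouse 4 (187.4) and control pregnant mouse 2 (210.6). Their mean log2 deviations of these markers were 6.01 and 6.40. Without these arrays, the log2 difference of Agt with HF feeding was 0.38 with pregnancy and -0.78 without it, and that of Enpep -2.45 and -1.05. HF non pregnant mouse 1 had a mean log2 deviation of 3.68 for 4 hepatocyte markers, where the next mouse had 2.04, and its albumin gene Alb reached 9042. The liver is the main source of angiotensinogen, and on this array Agt was 328.4, within the 124.1 to 426.5 of its group. Without it the difference of Agt between pregnant and non pregnant HF mice was 1.87. The part of other tissue on these arrays in the Agt values was not tested.

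Of a list of 19 further genes of the angiotensin system, 17 had a probe set of their own and 10 were tested. The other 7 with a probe set, among them the receptor genes Agtr1b, Agtr2 and Mas1 and the enzymes of aldosterone handling Cyp11b2 and Hsd11b2, did not pass the filter on low values. The remaining 2 genes of the list were not analysed here. Ctsd, the lysosomal protease cathepsin D, which can release angiotensin I, was the 1 gene called, and it was lower with HF feeding. Its log2 mean was 11.95 ± 0.14 in HF pregnant and 12.93 ± 0.39 in control pregnant mice (SD, n = 5 each), a difference of -0.99 (standard error 0.19, adjusted p = 0.0404 by limma), and the groups did not overlap. Of all probe sets, 0.192% passed by limma and 3.51% did not overlap in that comparison. Averaged over pregnancy the difference of Ctsd was -0.72 (standard error 0.14, adjusted p = 0.0193 by limma), where 1.24% of all probe sets passed and, besides Enpep, none of the 4 members. That count of 246 was 41 when control pregnant mouse 3 was left out, 4321 when mouse 2 of the same group was, and between 19 and 9136 under other fits. The call in pregnant mice rested on the setting, since it was lost in 15 of 32 alternatives. It did not pass without control non pregnant mouse 4, HF non pregnant mice 1, 2 or 3, control pregnant mice 1, 3 or 5, or any 1 of the 5 HF pregnant mice (largest adjusted p = 0.172 by limma, difference -0.89, without control pregnant mouse 3). The averaged call was lost in 4 of 31, which were without control non pregnant mouse 4 (difference -0.71, adjusted p = 0.0512 by limma), without control pregnant mouse 3 (difference -0.68), with the B cell covariate (difference -0.63, adjusted p = 0.0519 by limma) and with a replicate block (adjusted p = 0.0698 by limma). The block also ended the call in pregnant mice (adjusted p = 0.121 by limma), as did no filter on low values and a fit of the compared groups alone.

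Over the 10 tested genes of the list the median log2 difference with HF feeding was 0.07 with pregnancy and -0.10 without it, against 0.05 and 0.01 over all probe sets. Atp6ap2, the renin and prorenin receptor, was next to Ctsd by p in the comparison of diets averaged over pregnancy, with a log2 difference of 0.22 (standard error 0.07, adjusted p = 0.0804 by limma). Cma1, the chymase of mast cells, which also makes angiotensin II, was picked out after its values were seen, since its p was smaller in other comparisons. Its log2 mean was 7.80 ± 0.40 with and 6.72 ± 0.37 without pregnancy under HF feeding, and 6.86 ± 0.40 with and 7.29 ± 0.44 without pregnancy on the control diet (SD, n = 5 each). HF pregnant mice did not overlap with control pregnant mice (difference 0.93, standard error 0.24, adjusted p = 0.137 by limma) or with HF non pregnant mice (difference 1.08, standard error 0.24, adjusted p = 0.293 by limma). Of all probe sets, 3.51% and 1.53% did not overlap in these comparisons. The intensities of Cma1 were low, between 79.19 and 310.8. Agtrap did not overlap for pregnancy in HF mice either (difference 0.23, standard error 0.07, adjusted p = 0.577 by limma). Nor did Atp6ap2 with HF feeding in non pregnant mice (difference 0.20, standard error 0.09, adjusted p = 0.281 by limma), where 2.19% of all probe sets did not overlap.

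The M1 family, to which Enpep, Anpep and Lnpep belong, has further aminopeptidases that cut other peptides. Of 8 such genes, all had a probe set, 6 were tested and 0 passed in any of the 7 comparisons by limma. For HF feeding averaged over pregnancy, the smallest p was that of Lta4h, leukotriene A4 hydrolase, with a log2 difference of 0.27 (standard error 0.07, adjusted p = 0.0558 by limma). Npepps, the puromycin-sensitive aminopeptidase, followed there with -0.07 (standard error 0.06, adjusted p = 0.379 by limma). In HF mice Rnpep, aminopeptidase B, did not overlap between pregnant and non pregnant mice (difference 0.23, standard error 0.10, adjusted p = 1.0 by limma), as was found for 1.53% of all probe sets. Lta4h did not overlap between HF and control pregnant mice (difference 0.35, standard error 0.10, adjusted p = 0.17 by limma), as was found for 3.51% of all probe sets. Rnpep and this separation of Lta4h were named after their values were seen. With HF feeding the 6 genes had a median log2 difference of 0.08 in pregnancy and -0.06 without it. Trhde and Lvrn were under 100 on all arrays.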

How the data were processed

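Visceral fat RNA of 20 mice was measured on Affymetrix arrays, and the authors normalized the scans by RMA with the affy package under R 2.8.0, as the submitters' processing notes give. The deposited table holds linear intensity values for 45101 probe sets, with array medians of 60.69 to 64.73 and 17646 to 18833 probe sets above 100. The log2 of each deposited intensity was taken. Probe sets above 100 on at least 5 of 20 arrays were kept, without 64 control probe sets, leaving 19802. Of all probe sets, 34958 carried 1 symbol, 932 several and 9211 none, and the platform annotation may be old. Limma 3.58.1 in R 4.3.3 fitted 4 group means and 7 comparisons, with Benjamini-Hochberg adjustment over all kept probe sets at 0.05. The procedure was tested on simulated data. The rank product used 25 pairs of arrays and 100 permutations of the probe sets within each array. The members and the gene lists were chosen with earlier results of these data known. Named were the 6 members, called genes of 2 lists (19 genes of the angiotensin system, 8 aminopeptidases) and the 2 with the smallest p in each, and genes most alike by Pearson correlation (5 for Enpep, 3 for each other member). Cell type markers came from lists set with them. The alternatives changed the filter, the moderation, the array weights, the scaling, the groups fitted, the probe sets averaged, a floor at 100, a replicate block, a B cell covariate, the arrays left out, and the test (unadjusted p or rank product, each with a 1.5-fold change). Sequence came from RefSeq GRCm38.p6. The number of arrays limits the precision.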

Additional observations from a re-analysis of the deposited data

Results flagged for a closer look

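In 20 sets of 5 arrays (5 genes in 4 groups), 2 held an array whose log2 gap to the nearest other, divided by the range of its group, was above Dixon's limit of 0.71, where chance gives about 1 in 20. Agt in HF non pregnant mouse 5 stood at 6.95 on the log2 scale, under the other mice of its group. The same mouse had the highest B cell markers of all 20. Anpep in control non pregnant mouse 3 stood at 5.19, with all values of this gene under intensity 100. Anpep in control pregnant mouse 2, with a gap of 1.21 in a range of 1.70, lay just under that limit.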

How the results depend on the processing

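The log2 difference of Enpep with HF feeding lay between -2.49 and -2.21 over 32 alternatives in pregnant mice and between -1.86 and -1.60 over 31 averaged over pregnancy, values that chose the gene or hold those that did and so say nothing of its stability. Array weights gave the most other calls, with 7489 of all probe sets called for HF feeding in non pregnant mice against 0 by default. Of the 19802 probe sets, array weights called 2679 for pregnancy in HF mice and 1706 for pregnancy averaged over diet, against 5 and 2 by default. Calls under these weights were therefore common. Under them Enpep passed in non pregnant mice with HF feeding (-1.22), for pregnancy in HF mice (-1.25) and for pregnancy averaged over diet (-0.73). Agt passed for pregnancy in HF mice (1.34) and averaged (1.25). Signs turned under them for Agt with HF feeding in non pregnant mice (0.33), Enpep with pregnancy on the control diet (-0.22), and Agtr1a averaged for diet (0.03) and pregnancy (-0.01). With B cell markers as a covariate signs turned for Ace with HF feeding in pregnant mice (0.09), Agt in non pregnant mice (0.18), and Agtr1a (0.14) and Ace (0.03) averaged for diet. Without the 2 arrays highest in pancreatic genes Agt averaged for diet was -0.20. Leaving out each array gave ranges across 0 for Ace with HF feeding in pregnant mice (-0.10 to 0.13) and with pregnancy on the control diet (-0.12 to 0.11), Enpep with pregnancy on the control diet (-0.08 to 0.24), Agt averaged for diet (-0.06 to 0.30), and Agtr1a averaged for diet (-0.13 to 0.02) and pregnancy (-0.04 to 0.11), the last pair through HF non pregnant mouse 5. The cause was not tested. Of the 4 genes, the number called, which counts Enpep also where the arrays that chose it enter, became 2 by rank product for HF feeding in pregnant mice (Enpep and Agt) and 1 by weights, unadjusted p or rank product in non pregnant mice. It became 2 by the same 3 settings for pregnancy in HF mice, 1 by unadjusted p for the effect of pregnancy compared between diets, and 2 by weights and 1 by unadjusted p for pregnancy averaged over diet. Unadjusted p and rank product each carried a 1.5-fold change in these counts. Without that limit Enpep, at 1.41-fold, joined Agt in the last. At an unadjusted p alone stood 17.7% of probe sets for HF feeding in non pregnant mice and 4.66% for pregnancy in HF mice. For pregnancy compared between diets it was 3.08%, and averaged over diet 4.59%. Over all probe sets, 38 were called for HF feeding in pregnant mice and 15 to 62 with an array left out, and 246 for diet averaged over pregnancy and 41 to 4321. Deviations of 30 pairs of arrays with the same replicate number had a median correlation of -0.16 (-0.75 to 0.67). These values spread widely and the pairs share arrays, so they cannot decide whether the numbers mark a pairing or batch. With a replicate block Enpep kept -2.36 in pregnant mice and -1.15 in non pregnant mice. No call among the 4 genes changed with the block, while both calls of Ctsd were lost.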
